A study of Mus musculus with 4 samples.

Results

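The genes described here are 9 synaptic adhesion molecules of the LRRTM, neurexin and neuroligin families (Lrrtm1, Lrrtm2, Lrrtm3, Lrrtm4, Nrxn2, Nrxn3, Nlgn1, Nlgn2 and Nlgn3), out of 32285 genes in the count matrices. They were taken by name from a family chosen by a readout of these data. Which values chose it is not given, and Lrrtm4 stood out in earlier results for its difference between the genotypes in an oxytocin neuron sub-cluster. The genotype values of Lrrtm4 are therefore a description without a test. Transcripts were counted in single nuclei of the hypothalamus of 12 adult male mice on a C57/BL6NCr background. The groups were wild type (WT) and TRα1+m, the latter heterozygous for the R384C mutation of thyroid hormone receptor α1, which weakens the response of the receptor to the hormone. Each library was a pool of nuclei from 3 mice with the same genotype, and 2 experimental repeats each gave a library per genotype, so n = 2 per genotype throughout. The allele is carried by every cell, so effects in the adult and during development cannot be told apart.

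Neurexins sit in the membrane of the presynaptic terminal, and neuroligins and LRRTMs on the postsynaptic side bind them across the cleft. LRRTMs and Nlgn1 are best known from excitatory synapses and Nlgn2 from inhibitory ones, while Nlgn3 occurs at both. Lrrtm4 also binds heparan sulfate chains, which are carried by glypicans and by neurexins themselves. Several of these genes are also transcribed in glia, where Nlgn1, Nlgn2 and Nlgn3 have been described in astrocytes.

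The annotation kept 56386 nuclei, between 11976 and 16435 per library, with 47260127 to 59112785 unique molecular identifiers (UMIs) per library. Levels are UMIs summed over the nuclei of a cell group, scaled to 1000000 UMIs of that group (counts per 1000000, CPM). In all, 309 barcodes occurred in more than 1 library. Nuclei of repeat 2 were deeper, with a median of 4018 and 3382 UMIs in WT and TRα1+m, against 3038 and 2904 in repeat 1. In the main neuronal cluster, Neurons_1, several members differed between the repeats in the same direction in both genotypes. Lrrtm2 was higher in repeat 2 by 0.92 and 0.93 on the log2 scale in WT and TRα1+m, and Nrxn2 by 0.67 and 0.74. Nrxn3 was lower by 0.29 and 0.36.

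On the build GRCm38, 3 of the LRRTM genes lie inside α-catenin genes on the opposite strand. Lrrtm1 (chr6:77242689-77257791, plus strand) lies in an intron of Ctnna2. Lrrtm3 (chr10:63928472-64090277, minus strand) lies inside Ctnna3 and overlaps 1 of its annotated exons. Lrrtm2 lies on the minus strand inside Ctnna1 and overlaps 2. The strand setting of the counting is not given in the sources used here, so values of these 3 genes and of their hosts may share reads. Lrrtm4 stands alone on chr6:80018877-80810143. Nrxn3 (chr12:88722876-90334935) and Nlgn1 (chr3:25426215-26332460) are as extended, whereas Nlgn2 (chr11:69823122-69837784) and Nlgn3 (chrX:101299168-101325963) are compact. Introns were counted, so long genes collect more UMIs and levels were not compared between genes.

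The 250 bases before the RefSeq start of Lrrtm3 and before the first of the 2 listed starts of Lrrtm4, the members that differed most in oxytocin neurons, are shown because the mutated receptor is a transcription factor. They come from RefSeq on GRCm38.p6, where Lrrtm3 starts within the gene span given above, and the capitals mark CG dinucleotides, of which the Lrrtm3 stretch holds 6 and the Lrrtm4 stretch 3, against a median of 6 over all 32851 promoter windows.
Lrrtm3 (chr10:64090256-64090505, minus strand): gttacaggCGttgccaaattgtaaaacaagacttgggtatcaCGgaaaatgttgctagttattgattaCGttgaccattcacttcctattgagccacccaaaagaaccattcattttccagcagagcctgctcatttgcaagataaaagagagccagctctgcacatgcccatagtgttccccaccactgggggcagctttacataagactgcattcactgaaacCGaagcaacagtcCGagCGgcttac
Lrrtm4 (chr6:80018627-80018876, plus strand): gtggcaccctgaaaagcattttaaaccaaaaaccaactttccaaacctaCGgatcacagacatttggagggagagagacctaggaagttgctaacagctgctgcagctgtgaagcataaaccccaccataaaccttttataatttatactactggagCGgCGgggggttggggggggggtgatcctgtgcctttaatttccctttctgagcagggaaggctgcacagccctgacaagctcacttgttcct
The thyroid hormone receptor half-site AGGTCA, searched on both strands, was in 0 of the 10 such windows that the table holds for 6 members (Lrrtm1, Lrrtm3, Lrrtm4, Nlgn1, Nlgn2 and Nrxn3). It was in 14.02% of all windows.

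Lrrtm4 and Nrxn3 marked out neuron types most sharply. Lrrtm4 averaged 6390 ± 719 CPM in the somatostatin sub-cluster, 5595 ± 286 in CART Neurons_1 and 5128 ± 1472 in the sub-cluster labelled for oxytocin and AVP (SD over 4 libraries), and ranges of neighbours in this order overlapped. At the other end it reached 1449 ± 149 CPM in POMC/CART neurons and 1060 ± 56.1 in the AVasopressin sub-cluster, which were apart from each other and from all neuron types above. Nrxn3 followed another order. It was highest in the AVasopressin sub-cluster, at 10199 ± 844 CPM, with every library above those of GABA neurons (7233 ± 641) and somatostatin neurons (6377 ± 571), whose ranges overlapped. In CART Neurons_1 it was at 403 ± 121 CPM and in the oxytocin sub-cluster at 1018 ± 307. CART Neurons_1 were thus near the top for Lrrtm4 and last among neurons for Nrxn3, and AVasopressin neurons the reverse. These levels are descriptions, since the clusters were made from the same nuclei.

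Lrrtm3 was highest in NPY/AgRP neurons (781 ± 80.1 CPM) and somatostatin neurons (713 ± 121), with overlapping ranges. Among neurons it was lowest in the sub-cluster labelled Orexin+ (232 ± 3.91), called the orexin sub-cluster here after that label. There the glutamatergic marker Slc17a6 was at 25.6 to 41.6 CPM, below the 44.4 to 61.7 CPM of GABA neurons. The summed GABA markers were at 167 to 311 CPM there, against 90.9 to 109 CPM in Glutamatergic Neurons_1. Whether its nuclei are orexin neurons was not tested. Nlgn1 spanned a narrower range, from 1835 ± 138 CPM in NPY/AgRP neurons to 4625 ± 212 in Glutamatergic Neurons_2. Lrrtm1, Lrrtm2, Nlgn2, Nlgn3 and Nrxn2 were low, and neighbours in the order of neuronal sub-clusters overlapped in range, with 1 exception. For Lrrtm1, GABA neurons (34.51 to 36.42 CPM) lay just above Glutamatergic Neurons_3 (26.96 to 34.45 CPM). The ends of the order could be apart. Lrrtm1 ran from 41.2 ± 7.1 CPM in POMC/CART neurons to 17.7 ± 3.9 in CART Neurons_1, and Nlgn3 from 55.7 ± 9.9 in GABA neurons to 21.6 ± 8.2 in the orexin sub-cluster, with no overlap of libraries in either pair. The highest neuronal means of Lrrtm2, Nlgn2 and Nrxn2 were 24.4, 48.4 and 193 CPM and the lowest 11.8, 32.7 and 140.5 CPM.

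**Figure D1:**
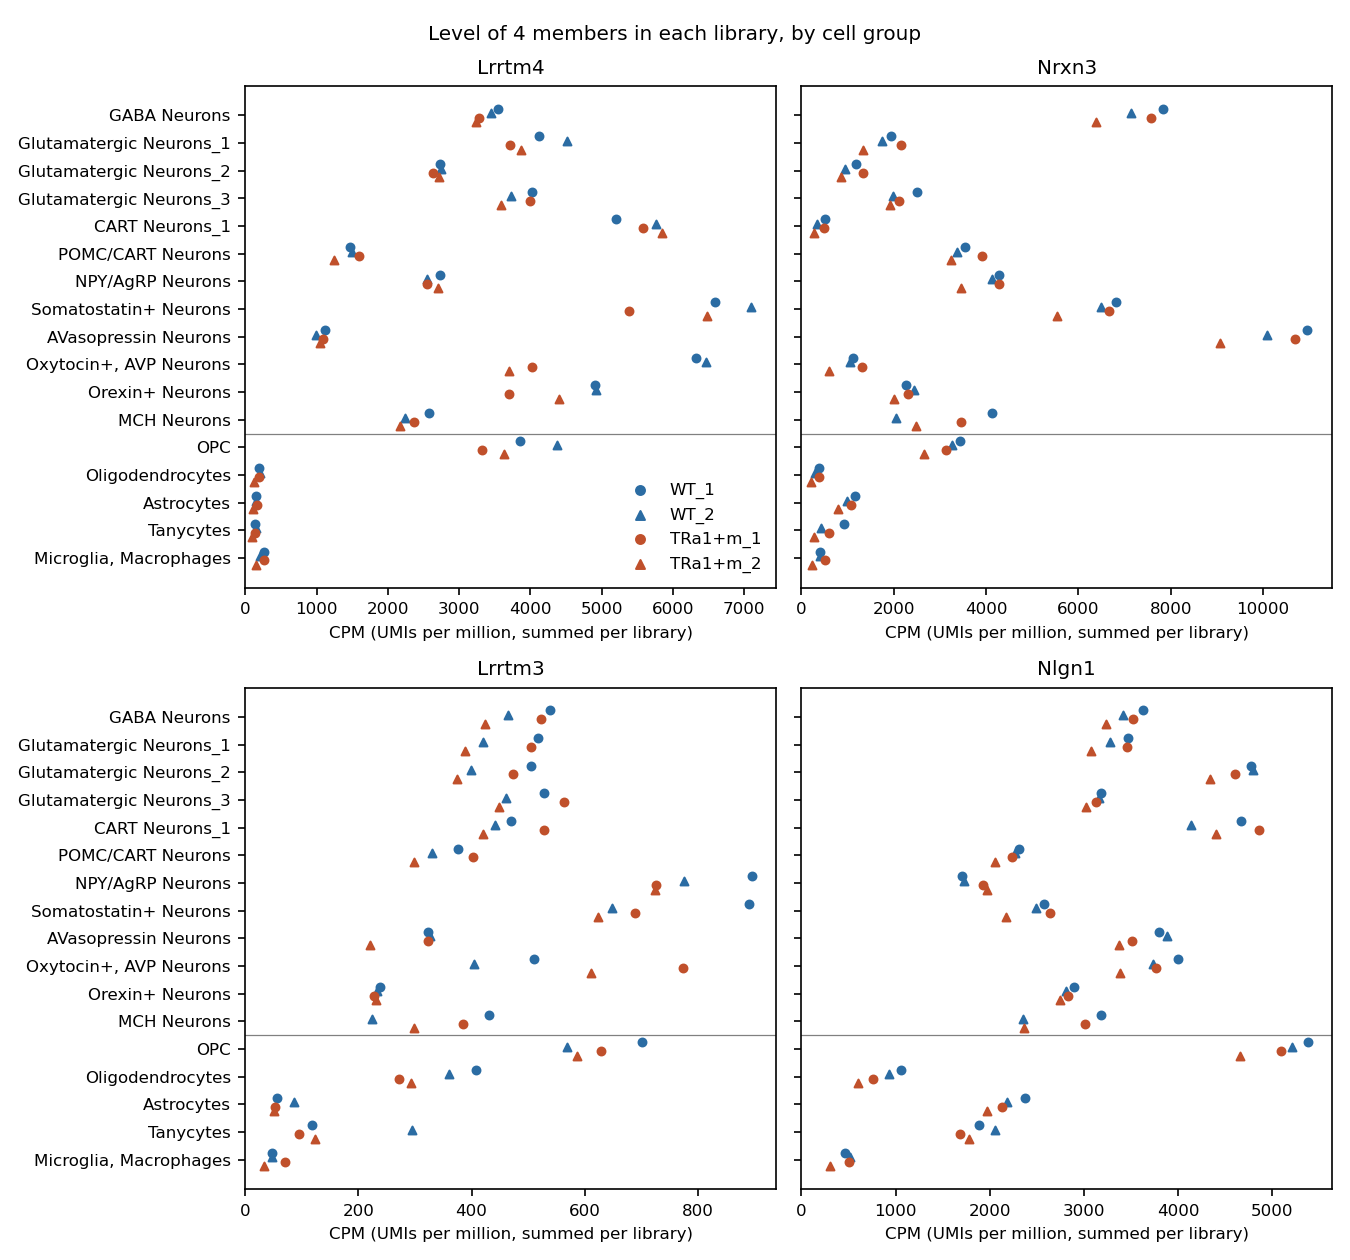
Level of Lrrtm4, Nrxn3, Lrrtm3 and Nlgn1 (x axis, CPM of UMIs summed per library) in 12 neuronal sub-clusters (above the line) and glial groups (below it). Points are libraries, blue for WT and orange for TRa1+m, circles for repeat 1 and triangles for repeat 2. Lrrtm4 peaks in somatostatin neurons and Nrxn3 in AVasopressin neurons, and OPC lie within the neuronal range for all 4 genes except Nlgn1, which is highest there.

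Oligodendrocyte progenitor cells (OPC) carried these genes at neuronal levels. As a share of the level in Neurons_1, OPC were at 287 ± 31.1% for Nlgn3, 233 ± 22.3% for Nrxn2, 149 ± 5.4% for Nlgn2 and 145 ± 3.8% for Nlgn1 (SD, n = 4 libraries). Lrrtm3 and Lrrtm2 were at 133 ± 8.1% and 133 ± 14.2%. Lrrtm4 was at 109 ± 8.8% and Lrrtm1 at 99.5 ± 10.9%, which did not stand apart from 100%, and Nrxn3 alone was lower, at 74.0 ± 7.0%. Nlgn3 (148 ± 39.4 CPM) and Nrxn2 (404 ± 86.4 CPM) were higher in OPC than in any of the other 16 cell groups, with no overlap of libraries. The OPC markers Pdgfra and Cspg4 summed to 830 to 1526 CPM in this cluster and to 5 to 10 CPM in Neurons_1. The 6 pan-neuronal genes were between 10.4% (Syt1) and 94.2% (Elavl4) of Neurons_1 in OPC, with a median of 37.8%. Snap25 and Stmn2 were at 55.6 ± 4.6% and 60.6 ± 20.1%, and Rbfox3 and Celf4 at 10.9 ± 2.2% and 20.0 ± 2.4%.

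**Figure D2:**
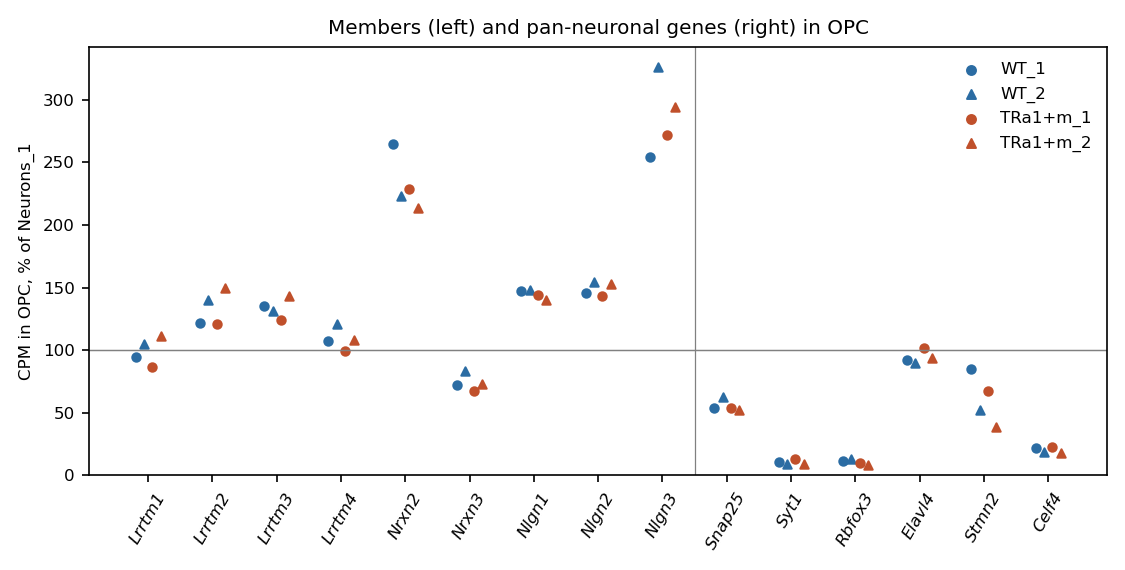
Level of the 9 members (left of the line) and of 6 pan-neuronal genes (right) in OPC, as a percentage of the level in Neurons_1 of the same library. The grey line marks 100%. Members except Nrxn3 lie near or above the line, and the pan-neuronal genes spread from 10.4% for Syt1 to 94.2% for Elavl4.

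In the other glia the members parted ways. Nlgn1 in astrocytes reached 2166 ± 167 CPM, 61.6 ± 2.6% of Neurons_1, and Nrxn3 was at 23.7 ± 1.5%. Both lay within the range of the 6 pan-neuronal genes there, which was 8.9 to 82.7% with a median of 24.1%. Above this range were Nlgn3, at 131 ± 23.0% (109 to 153% across libraries), and Lrrtm2, at 99.3 ± 48.6% (50.9 to 156%). Nrxn2, Nlgn2 and Lrrtm1 lay within it, at 81.2 ± 13.4%, 77.3 ± 25.9% and 26.3 ± 12.3%. Lrrtm3 was at 333 ± 62.0 CPM or 71.7 ± 12.9% of Neurons_1 in oligodendrocytes, against 13.4 ± 4.5% in astrocytes. Lrrtm2 and Nlgn3 had higher shares in oligodendrocytes, at 110 ± 26.2% and 85.0 ± 23.5%. The pan-neuronal genes ranged from 10.7 to 97.0% in oligodendrocytes, with a median of 26.8%. The host gene of Lrrtm3, Ctnna3, was at 340 ± 121% of Neurons_1 in oligodendrocytes. Lrrtm4 was at 5.1 ± 0.9%, 4.2 ± 0.7% and 6.3 ± 1.6% of Neurons_1 in oligodendrocytes, astrocytes and microglia. This was below Syt1, the lowest of the 6 in each of these clusters (10.7 ± 3.6%, 8.9 ± 2.8% and 12.8 ± 3.0%). Lrrtm4 was read as background there. Nrxn3 was likewise below Syt1 in oligodendrocytes (7.3 ± 1.0%) and microglia (9.0 ± 2.0%). In microglia Lrrtm3 (10.4 ± 2.6%) and Nlgn1 (12.7 ± 2.5%) were too. These were read as background as well. With every nucleus thinned to 900 UMIs, a Lrrtm4 UMI was found in 91.2 ± 2.2% of OPC, 75.6 ± 1.6% of Neurons_1, 14.3 ± 2.9% of oligodendrocytes and 12.2 ± 1.9% of astrocytes (97.6, 91.1, 24.3 and 23.8% before thinning). Median depth was 2221 to 2984 UMIs in OPC and 1493 to 1812 in oligodendrocytes.

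The genes whose level over 16 cell groups (4 glial clusters and 12 neuronal sub-clusters) was most like that of Lrrtm4 were Osbpl10 (Pearson r of log2 CPM 0.942), Lmtk2 (0.939) and Dtnbos (0.928). Those most like Nrxn3 were Cacna2d3 (0.884), Gnasas1 (0.884) and Gabrg3 (0.858), and those most like Nlgn1 were Acp1 (0.944), 4930445B16Rik (0.888) and Astn2 (0.883). For Lrrtm3 they were Gria4 (0.918), Trpc1 (0.897) and Anks1b (0.889), with its host Ctnna3 at 0.845. For Lrrtm1 the first was its host Ctnna2 (0.983), followed by Pak3 (0.947) and Tmem39b (0.938). Lrrtm2 was followed most closely by Pcdh11x (0.876), and its host Ctnna1 was at 0.198. Nlgn3 was most like Cspg5 (0.909) and Nrxn2 most like 4430402I18Rik (0.923). These points share libraries and depth, and 11284 genes were compared.

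Between the genotypes, none of the 8 members other than Lrrtm4 passed an adjusted p of 0.05 in edgeR's quasi-likelihood test, in 39 gene and cluster pairs of the 5 main clusters or 92 pairs of the 12 neuronal sub-clusters. At an unadjusted p under 0.05 there were 2 and 1 pairs, and DESeq2 also called 0. Over all genes, 0.0188% of pairs in the main clusters and 0.00367% in the sub-clusters passed the adjusted threshold, and 2.22% and 1.7% had an unadjusted p under 0.05. With 2 libraries per genotype, absence of a call does not show equal levels. Nor is lack of overlap a strong sign, since an exact permutation test of 2 against 2 libraries has a smallest two-sided p of 0.333. The share of all genes without overlap was not computed. The counts of members without overlap given below are therefore descriptions and no result about the members. Fitted fold changes include the TMM scaling of the libraries and so differ from the ratio of the CPM printed beside them, by a median of -0.065 in Neurons_1 and -0.041 in OPC on the log2 scale. In Neurons_1, 7 of the 8 members had a lower fitted level in TRα1+m, where 47.8% of all genes did, but by the CPM ratio it was 4 of 8. In OPC it was 7 of 8 by the fit, where 49.6% of all genes were lower, and 6 of 8 by the CPM ratio. The fitted counts also depended on single libraries. Without WT repeat 2 or without TRα1+m repeat 1 only 3 of 8 were lower in each cluster, and without WT repeat 1 or TRα1+m repeat 2 it was 5 in Neurons_1 and 6 or 8 in OPC.

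In Neurons_1, Lrrtm4 was at 3599 and 3619 CPM in WT repeats 1 and 2 and at 3332 and 3351 CPM in TRα1+m. Both mutant libraries lay below both WT libraries. The ratio of mean CPM was -0.11 on the log2 scale, and the fitted log2 fold change was -0.18 ± 0.06 (SE). Of the 9 members, 2 did not overlap between the genotypes here, Lrrtm4 and Lrrtm1, a count with no share of all genes beside it. In the same cluster the summed markers of microglia were at 47.3 to 49.3 CPM in WT and 55.1 to 56.3 CPM in TRα1+m, those of vascular cells at 40.2 to 95.3 and 107 to 110 CPM, and those of the oxytocin sub-cluster at 787 to 1123 and 622 to 653 CPM. Their part in the result was not tested. Nlgn1 was at 3644 and 3522 CPM against 3546 and 3329 CPM, and these overlapped. Nrxn3 was at 4783 and 3904 CPM against 4668 and 3629 CPM, so the repeats differed more than the genotypes. In GABA neurons, Nrxn3 had a log2 fold change of -0.16 ± 0.12 (adjusted p = 1.00 in edgeR), and with the repeat as a block it was called, at -0.16 ± 0.04 (adjusted p = 0.0412), where 0.42% of all pairs of the sub-clusters were called. Without a block and with 1 library left out, it ranged from -0.32 to -0.020 and was not called.

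In OPC, Lrrtm4 was at 3860 and 4378 CPM in WT and 3322 and 3627 CPM in TRα1+m (log2 fold change -0.28 ± 0.10). Nrxn3 was at 3445 and 3269 CPM against 3133 and 2658 CPM (-0.25 ± 0.13, adjusted p = 1.00 in edgeR). Both genes were lower in each mutant library than in each WT library. Of the 9 members, 3 did not overlap between the genotypes here, Lrrtm4, Nrxn3 and Nlgn1, again with no share of all genes beside the count. Summed tanycyte markers were at 532 to 550 CPM in WT OPC and 680 to 749 CPM in TRα1+m, and GABA neuron markers at 156 to 173 and 147 CPM. Their part in the result was not tested. The tanycyte sum (Rax, Col23a1 and Nnat) was not specific to tanycytes, since it was at 1407 to 2191 CPM in AVasopressin neurons. With the block, none of the 8 tested members was called in a main cluster, where 1.22% of all pairs were.

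In oligodendrocytes, Nlgn1 was at 1055 and 928 CPM in WT and 764 and 600 CPM in TRα1+m, a log2 fold change of -0.48 ± 0.18 (adjusted p = 0.892 in edgeR). Nlgn3 went the other way, at 38.2 and 33.5 CPM against 49.9 and 47.1 CPM (0.50 ± 0.20, adjusted p = 0.927 in edgeR). Lrrtm3 was at 407 and 359 CPM against 272 and 293 CPM (-0.38 ± 0.17, adjusted p = 0.999 in edgeR). The groups did not overlap for these 3 genes, yet none passed the test. In all, 5 of the 9 members did not overlap here, Lrrtm4 and Nrxn2 being the others, although Lrrtm4 was read as background in this cluster. The share of all genes was not computed, so this count is a description. Ctnna3, the host of Lrrtm3, was also lower in each mutant library, at 1779 and 1813 CPM in WT and 1135 and 1382 CPM in TRα1+m (-0.45 ± 0.16). The 6 pan-neuronal genes summed to 1118 to 1209 CPM in WT oligodendrocytes and 720 to 1098 CPM in TRα1+m, with none at 0. Nlgn1 was at 23.7 ± 4.9% of Neurons_1 in oligodendrocytes, below the median of 26.8% for these pan-neuronal genes. Tanycyte markers, whose sum was not specific to tanycytes, were at 439 to 518 and 544 to 759 CPM. OPC markers were at 19.5 to 19.7 and 20.6 to 25.9 CPM, and GABA neuron markers at 207 to 215 and 192 to 204 CPM. Their part in the result was not tested.

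In astrocytes, Lrrtm3 was at 56.4 and 86.6 CPM in WT and 51.9 and 50.9 CPM in TRα1+m (-0.46 ± 0.22, adjusted p = 1.00 in edgeR), and with 1 library left out the value ranged from -0.71 to -0.15. The cluster includes tanycytes, in which Lrrtm3 was at 118 and 294.5 CPM against 95.3 and 123 CPM. In the astrocyte sub-cluster alone it was at 41.5 and 37.7 CPM against 41.7 and 33.3 CPM, and the genotypes overlapped. In microglia the fits were wide, with standard errors from 0.27 for Nrxn2 to 0.81 for Lrrtm2, and Lrrtm1 did not pass the filter on low counts.

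**Figure D3:**
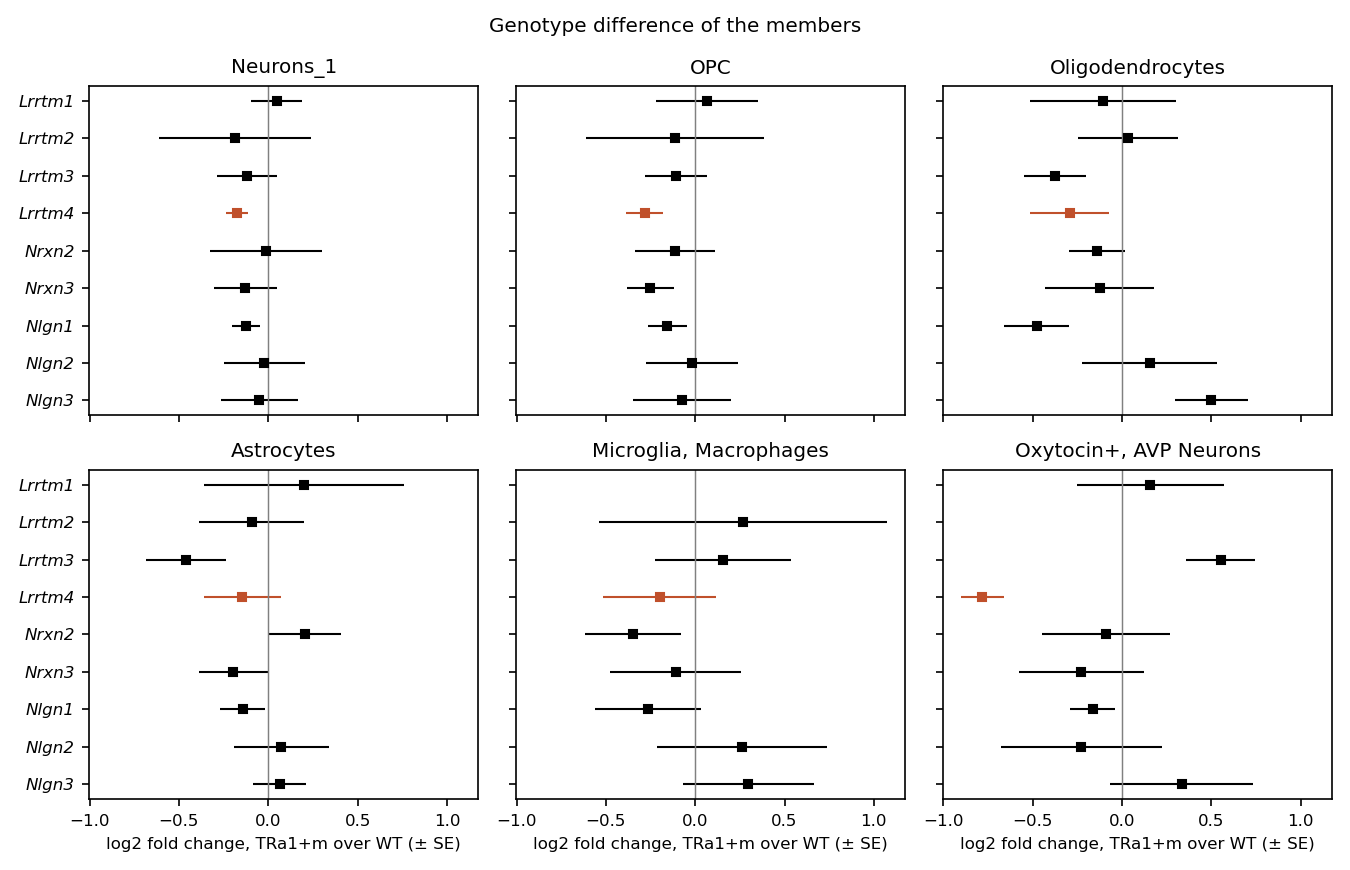
Log2 fold change of each member, TRa1+m over WT, with its standard error (bars) in the 5 main clusters and the oxytocin sub-cluster. Lrrtm4 (orange) is a description without a test, and none of the other members passed the adjusted threshold. The oxytocin sub-cluster shows Lrrtm4 at -0.78 and Lrrtm3 at 0.55, on opposite sides of 0.

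The sub-cluster labelled for oxytocin and AVP neurons held 107 and 77 WT nuclei and 134 and 48 mutant nuclei. Lrrtm4 was at 6330 and 6464 CPM in WT and 4021 and 3697 CPM in TRα1+m (log2 fold change -0.78 ± 0.12). Lrrtm3 was at 511 and 405 CPM in WT and 775 and 612 CPM in TRα1+m (0.55 ± 0.19, adjusted p = 1.00 in edgeR). The genotypes were apart for both genes, in opposite directions. Of the 8 members in this fit, 3 did not overlap, Nlgn3 being the other, and the share of all genes was not computed. Lrrtm3 differed from its change in the other Neurons_1 nuclei by 0.65 ± 0.17, short of the threshold (adjusted p = 0.0736 in edgeR), which it passed with RLE factors (adjusted p = 0.0150). Across the tests of a differing genotype effect, 0.0778% of all genes in the 12 sub-cluster fits and 0.0694% in the 4 glial fits were called, and none of the 8 tested members was. The other members did not pass the test here either. Nrxn3 was at 1121 and 1049 CPM in WT and 1314 and 589 CPM in TRα1+m (adjusted p = 1.00 in edgeR), and without the TRα1+m library of repeat 1 its log2 fold change was -0.95 (adjusted p = 0.0160). The summed pan-neuronal genes were at 2607 to 2620 CPM in WT and 2756 to 3033 CPM in TRα1+m, the tanycyte markers at 243 to 305 and 407 to 454 CPM, and the microglia markers at 29.1 to 36.6 and 55.3 to 56.9 CPM. Their part in these results was not tested, and the tanycyte sum was also high in AVasopressin neurons, as given above.

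Magnocellular neurons make either oxytocin or vasopressin, and this sub-cluster held both kinds. After these values had been seen, its 366 nuclei were split by whether Oxt or Avp had more UMIs, which 1 nucleus could not decide. In 14 nuclei the Oxt share of both was between 25 and 75%. Oxt-higher nuclei numbered 34 and 28 in WT and 44 and 10 in TRα1+m. In these, Oxt reached 10901 to 86252 CPM, against 91.5 to 737 CPM in oligodendrocytes, which should lack it.

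In the Oxt-higher nuclei, Lrrtm3 was at 542 and 467 CPM in WT and 1737 and 1613 CPM in TRα1+m, a ratio of 3.32. In the Avp-higher nuclei (73, 49, 89 and 38) it was at 496 and 367 CPM against 340 and 306 CPM. The higher mutant level of Lrrtm3 was thus seen in the Oxt-higher nuclei and not in the Avp-higher ones. The median Oxt-higher nucleus held 3.46 and 4.00 Lrrtm3 UMIs per 10000 in WT and 14.8 and 11.6 in TRα1+m, and no nucleus gave more than 25.9% of a library's Lrrtm3 UMIs. Ctnna3 was at 721 and 411 CPM in the WT Oxt-higher nuclei and 1650 and 1154 CPM in the mutant ones, so host and nested gene were both higher.

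Lrrtm4 was lower in mutant nuclei of both kinds. It was at 5451 and 5952 CPM against 2876 and 2698 CPM in the Oxt-higher nuclei, a ratio of 0.489, and at 6734 and 6778 CPM against 4538 and 4002 CPM in the Avp-higher nuclei, a ratio of 0.632. Gpc5, a glypican carrying heparan sulfate, was at 2296 and 2077 CPM in WT and 6273 and 8442 CPM in TRα1+m in the Oxt-higher nuclei, and at 326 and 283 against 296 and 212 CPM in the Avp-higher ones. In the mutant library of repeat 2, 1 of the 10 Oxt-higher nuclei gave 35.7% of the Gpc5 UMIs. Nlgn1 overlapped between the genotypes in the Oxt-higher nuclei, at 3542 and 3357 CPM against 3580 and 3157 CPM. Nrxn3 was higher in both mutant libraries there, at 1534 and 1803 CPM in WT and 2085 and 2253 CPM in TRα1+m. In the Avp-higher nuclei Nrxn3 was at 931 and 588 CPM against 960 and 80.7 CPM, the last from 19 UMIs, and the genotypes overlapped. Oxt itself differed more between the repeats than the genotypes, at 19145 and 86252 CPM in WT and 10901 and 47122 CPM in TRα1+m. Within each repeat it was lower in the mutant library.

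Outside this sub-cluster, 24 and 19 WT and 17 and 6 mutant nuclei of Neurons_1 had at least 20 Oxt UMIs and more Oxt than Avp. Lrrtm3 was at 432 and 558 CPM in WT and 707 and 941 CPM in TRα1+m there, and Gpc5 at 1448 and 952 against 2066 and 2518 CPM. Both were higher in each mutant library, with ratios of 1.66 and 1.91 against 3.32 and 3.37 in the Oxt-higher nuclei of the sub-cluster. These nuclei come from the same libraries, so this is no independent observation. The Lrrtm3 value of mutant repeat 2 rests on 31 UMIs, and the mix of sub-clusters was not compared between libraries. Lrrtm4 overlapped, at 2753 and 3620 CPM against 3305 and 2033 CPM. Oxt, by which these nuclei were chosen, was at 39586.5 and 53734.5 CPM in WT and 22376 and 31432 CPM in TRα1+m. These splits were chosen after the values were seen and rest on few nuclei, so no test was made.

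**Figure D4:**
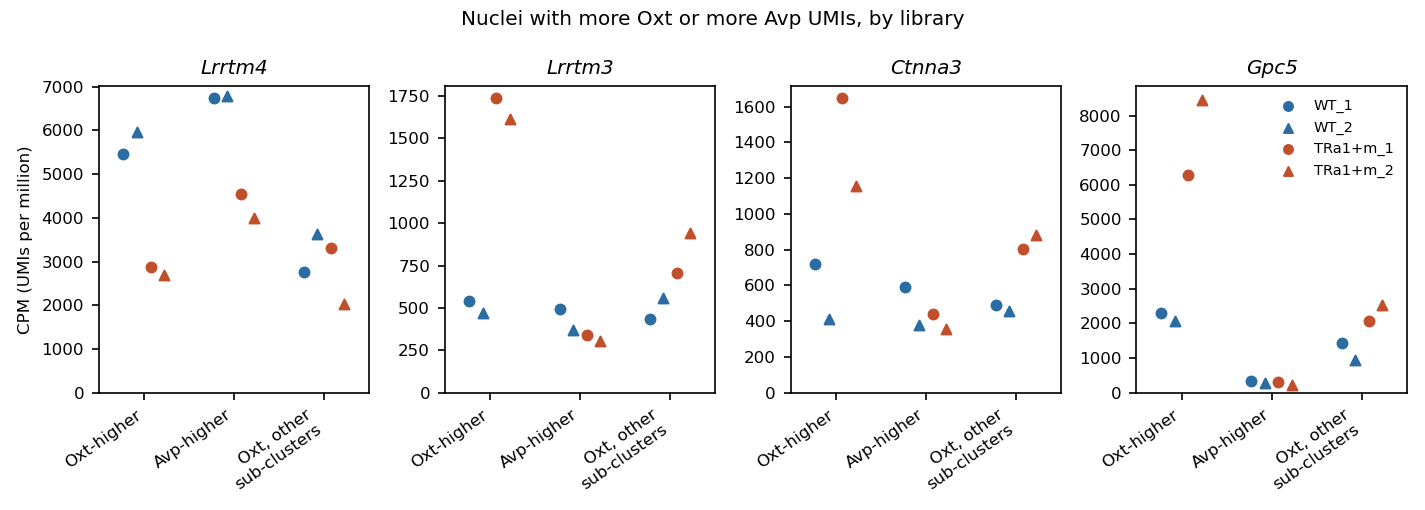
Level (CPM, y axis) of Lrrtm4, Lrrtm3, Ctnna3 and Gpc5 in nuclei of the oxytocin sub-cluster with more Oxt or more Avp UMIs, and in Oxt nuclei of other sub-clusters, per library. Lrrtm3, Ctnna3 and Gpc5 are raised in both mutant libraries among Oxt-higher nuclei, and Lrrtm4 is lower in both kinds of nuclei of the sub-cluster.

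In the other 11 neuronal sub-clusters, Nrxn3 had a lower fitted level in TRα1+m in 10 and a lower mean CPM in 9. Over all genes, 49.3% of gene and sub-cluster pairs had a lower fitted level. Other members leaned the same way, with Lrrtm4 lower in 10 and 9, Nlgn1 in 9 and 9, Lrrtm3 in 9 and 8 and Nlgn3 in 9 and 7. Lrrtm2 was lower in 7 and 6 of 8. Nrxn2 was lower in 6 by the fit and 0 by CPM, Nlgn2 in 4 and 3, and Lrrtm1 in 3 and 1. These sub-clusters come from the same 4 libraries, and the lean over the members depended on single libraries. With the oxytocin sub-cluster included and Lrrtm4 left out, 61 of 92 pairs of member and sub-cluster had a lower fitted level. Without WT repeat 2 it was 41 of 93, and without TRα1+m repeat 1 it was 45 of 93. Without WT repeat 1 it was 63 of 93, and without TRα1+m repeat 2 it was 56 of 92. In Glutamatergic Neurons_1, Lrrtm4 was at 4121 and 4520 CPM in WT and 3720 and 3866 CPM in TRα1+m, and in the orexin sub-cluster at 4906 and 4926 CPM against 3693 and 4397 CPM. Nlgn3 in NPY/AgRP neurons was at 61.9 and 73.8 CPM against 22.7 and 63.4 CPM (-0.65 ± 0.40, adjusted p = 1.00 in edgeR), a difference carried by 1 mutant library.

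Of 74 further genes of the same pathways, 73 were tested in the main clusters and 71 in the sub-clusters, and 0 of 336 and 0 of 740 pairs passed the adjusted threshold. At an unadjusted p under 0.05 there were 12 and 25 pairs (3.57% and 3.38%), against 2.22% and 1.7% of the pairs of all genes. With the block 7 and 8 pairs were called, where 1.22% and 0.42% of the pairs of all genes were. The lists were chosen with earlier results of these data known, so neither comparison can be read as an excess. In oligodendrocytes, Lrrc4c, the netrin-G ligand NGL-1, was at 1764 and 1688 CPM in WT and 789 and 739 CPM in TRα1+m (-1.11 ± 0.15, adjusted p = 0.0996 in edgeR). Il1rapl1, a postsynaptic partner of the receptor phosphatase Ptprd, was at 1144 and 1179 CPM against 702 and 666 CPM (-0.70 ± 0.14, adjusted p = 0.254 in edgeR). Grid1, a cerebellin receptor, was at 55.2 and 42.4 CPM against 126 and 146 CPM. Its change differed from that in Neurons_1 by 1.61 ± 0.20 (adjusted p = 0.0110 in edgeR). The genotype test of Grid1 within oligodendrocytes did not pass (adjusted p = 0.115 in edgeR).

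Among heparan sulfate proteoglycans, Gpc5 was called for a genotype effect that differed between cell types. In OPC it was at 3124 and 3101 CPM in WT and 2329 and 2339 CPM in TRα1+m, and differed from its change in Neurons_1 by -0.42 ± 0.09 (adjusted p = 0.00238 in edgeR). In the oxytocin sub-cluster its change differed from that in other Neurons_1 nuclei by 1.17 ± 0.17 (adjusted p = 6.7e-08 in edgeR). In POMC/CART neurons it did so by 0.60 ± 0.14 (adjusted p = 0.0388 in edgeR). The genotype test within each of these cell groups did not call Gpc5 (adjusted p = 0.141 in edgeR in the oxytocin sub-cluster). Gpc6 in the oxytocin sub-cluster was at 262 and 255 CPM against 187 and 137 CPM (adjusted p = 1.00 in edgeR).

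In NPY/AgRP neurons, Il1rapl2 was at 90.3 and 128 CPM in WT and 261 and 321 CPM in TRα1+m, and the scaffold gene Lin7a at 513 and 364 CPM against 204 and 208 CPM. Their changes differed from those in other Neurons_1 nuclei by 1.52 ± 0.17 and -0.93 ± 0.16 (adjusted p = 4.65e-15 and 6.5e-06 in edgeR). Ptprd in the orexin sub-cluster (-0.70 ± 0.17), Il1rapl2 in the oxytocin sub-cluster (0.76 ± 0.19) and Il1rapl1 in POMC/CART neurons (0.47 ± 0.10) were also called in this way. No pair named here passed the genotype test within its own sub-cluster. In NPY/AgRP neurons that test gave an adjusted p of 0.142 for Il1rapl2 and 0.293 for Lin7a in edgeR. Il1rapl2 had 51 to 182 UMIs per library in NPY/AgRP neurons.

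**Figure D5:**
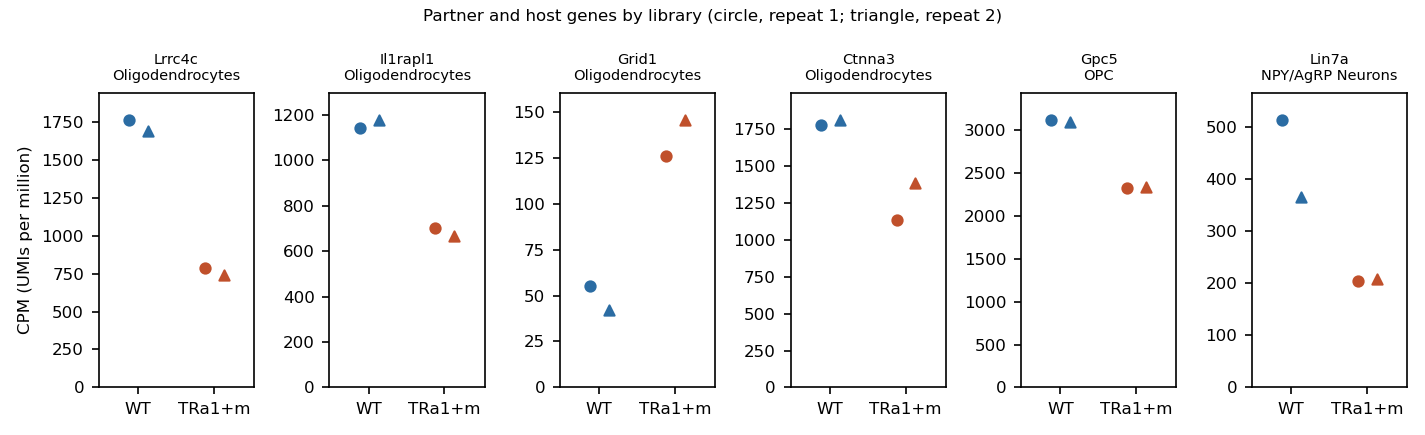
Level (CPM, y axis) of 5 further genes of the synaptic lists and the host gene Ctnna3, in the cell group named above each panel, by genotype and library. In every panel both mutant libraries lie on 1 side of both WT libraries, higher for Grid1 and lower for the others. The panels were picked among genes named for small p-values in these same data, so this separation is no added support.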

How the data were processed

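Per the labels and methods, the authors counted UMIs per gene and nucleus with Cell Ranger 5.0.1, introns included, on mm10 (GRCm38), and deposited these raw counts without normalisation. Their clusters, made in Seurat, were used as annotated. The members and gene lists were chosen with earlier results of these data known. Raw counts were summed per library and cluster. edgeR 4.0.16 in R 4.3.3 (filterByExpr, TMM, robust quasi-likelihood F-tests, two-sided, Benjamini-Hochberg over all genes of a cluster, adjusted p 0.05) compared genotypes in 5 main clusters and in the 12 neuronal sub-clusters for which no library held under 10 nuclei. With 2 libraries per genotype, the genotype fit has 2 residual degrees of freedom. The quasi-likelihood fit moderates each gene's spread between pools of mice with that of the other genes. Its p-values therefore rest largely on spread shared across genes, not on that of the gene alone. An interaction term, with library as a block, tested whether a genotype effect differed between cell types. The same moderation applies to its p-values. The study's methods place a library of each genotype in each repeat, and differences between repeats correlated between genotypes (Pearson r across genes 0.313 to 0.668), so a fit with the repeat as a block (1 residual degree of freedom) was an alternative. The study's rank sum test over nuclei was not used, since nuclei are not replicates. Lrrtm4 was fitted with the rest and left out of counts of calls. Named were all members in the main clusters and the oxytocin sub-cluster, other pairs with an unadjusted p under 0.05 or an absolute log2 fold change of at least 0.5, called genes of the other lists and up to 3 per list by smallest p. The genes most alike were the 3 with the highest r among those reaching 20 CPM. Those of Nlgn2 are not reported here. Further alternatives used DESeq2 1.42.0, RLE factors, unfiltered genes, a bias-adjusted fit, equal numbers of nuclei and each library left out. The bias-adjusted fit with the block and the Oxt and Avp splits were added after seeing the data. Doublets were removed by the authors by score before annotation and not called again. Figures were drawn with matplotlib 3.10.9 in Python 3.11.15.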

Additional observations from a re-analysis of the deposited data

Results flagged for a closer look

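The deposited matrices also held 11804 barcodes with 36275285 UMIs that the annotation does not list, and the members were detected there too. These barcodes gave 75545 UMIs of Lrrtm4, 99996 of Nrxn3, 94385 of Nlgn1, 11339 of Lrrtm3 and 6284 of Nrxn2. The less abundant members gave 2208 UMIs of Nlgn3, 1420 of Nlgn2, 818 of Lrrtm1 and 807 of Lrrtm2. Lrrtm4 was at 1898 and 2266 CPM in these barcodes of WT and 1922 and 2189 CPM in those of TRα1+m, so the genotypes overlapped. They were in no comparison, and no cell type is given for them. No outlier check was possible with 2 libraries per genotype.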

How the results depend on the processing

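Counts of calls among the 8 tested members stayed at 0 in the main clusters under every alternative. In the sub-clusters the count was 1 with the replicate block and 1 with the bias-adjusted fit and the replicate block, both Nrxn3 in GABA neurons, and ranged from 0 to 1 with a library left out, the 1 being Nrxn3 in the oxytocin sub-cluster without the TRα1+m library of repeat 1. The count of differing genotype effects was 1 with RLE factors, which was Lrrtm3 in the oxytocin sub-cluster. The replicate block changed no other call of the 8 tested members, and the cause of these changes was not tested. Among the further genes of the same pathways the block brought 7 and 8 called pairs. The host gene Ctnna2 in oligodendrocytes was also called with it (-0.55, adjusted p = 0.0261 in edgeR). Where a library is left out, the spread of the lone library left is taken from the other genotype. Lrrtm4 in the oxytocin sub-cluster ranged from -0.86 to -0.69 on the log2 scale over all alternatives, and Lrrtm3 there from 0.35 to 0.71. Of 515 values of 47 fold changes of the tested members under alternatives, 50 had the other sign, 46 of them with a library left out and 4 with equal numbers of nuclei, and none of these was a call. The latter were Nlgn2 in astrocytes (-0.016) and OPC (0.037) and Nrxn2 (0.066) and Nrxn3 (0.048) in the oxytocin sub-cluster. With a library left out, the log2 fold changes whose sign was not fixed are given from lowest to highest. In astrocytes these were Lrrtm1 -0.84 to 0.77, Lrrtm2 -0.49 to 0.20, Nlgn2 -0.18 to 0.32, Nrxn2 -0.0029 to 0.45 and the untested Lrrtm4 -0.46 to 0.11. In microglia these were Lrrtm2 -2.11 to 1.04, Lrrtm3 -0.54 to 0.59, Nlgn1 -0.69 to 0.058, Nlgn2 -0.49 to 0.72, Nrxn3 -0.81 to 0.35 and the untested Lrrtm4 -0.71 to 0.17. In Neurons_1 these were Lrrtm2 -0.70 to 0.32, Lrrtm3 -0.31 to 0.046, Nlgn2 -0.24 to 0.23, Nlgn3 -0.27 to 0.15, Nrxn2 -0.40 to 0.34 and Nrxn3 -0.35 to 0.058. In OPC these were Lrrtm1 -0.15 to 0.26, Lrrtm2 -0.80 to 0.50, Lrrtm3 -0.29 to 0.097, Nlgn2 -0.25 to 0.25, Nlgn3 -0.38 to 0.31 and Nrxn2 -0.43 to 0.15. In oligodendrocytes these were Lrrtm1 -0.54 to 0.51, Lrrtm2 -0.20 to 0.33, Nlgn2 -0.21 to 0.65 and Nrxn3 -0.59 to 0.22. In the oxytocin sub-cluster these were Lrrtm1 -0.16 to 0.32, Nlgn2 -0.73 to 0.50, Nrxn2 -0.61 to 0.35 and Nrxn3 -0.95 to 0.22. The means of Lrrtm1, Lrrtm2, Nlgn2 and Nlgn3 were 148 CPM or less in every cell group. How far depth limits each member was not compared.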
